A study of Homo sapiens with 6 samples.

Results

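The cytosolic ribosomal protein genes were followed in SUM159 cells given decitabine. They were chosen by symbol: array features whose annotation gave a single protein-coding gene named RPL or RPS with a number and at most 1 letter, without paralogues, pseudogenes, Y-linked copies or genes of the mitochondrial ribosome. The rule found 45 of the 14884 named genes, 28 of the large subunit (RPL) and 17 of the small subunit (RPS), out of 73 genes in RefSeq that meet it (43 large and 30 small). The other 28, among them RPL5, RPS4X and RPS27A, were not analysed here. Where a gene had several features, it is represented by the brightest one, on average over the 6 arrays.

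SUM159 is an established triple-negative breast carcinoma line. Decitabine is a deoxycytidine analogue. Once incorporated into DNA it binds DNA methyltransferases covalently, and methylation is lost as the cells divide. The 3 treated samples came from SUM159 cells kept for 72 h in 1 µM decitabine with fresh medium each day. The sample descriptions give decitabine and the titles DAC, whereas the treatment protocol spells the drug as 5'-deoxy-azacytidine. The groups follow the descriptions, and which name is right could not be settled here. The 3 samples called untreated came from SUM159 cells kept for 72 h in a medium labelled NT. That was read as no treatment, although their titles also carry 1 µM, and the labels do not say whether the medium held the drug's solvent. The growth medium of all 6 samples held serum, insulin and hydrocortisone. Whether the samples of a group came from separate cultures is not labelled, and the p-values therefore cover a spread between samples that may be technical. Total RNA was measured on 6 single-colour arrays, and levels are the deposited values read as log2.

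Each ribosome has a small subunit, which binds the messenger RNA and decodes it, and a large subunit, which joins amino acids into the growing chain and lets it out through a tunnel. Ribosomal proteins stabilise the ribosomal RNA and line the sites where factors and tRNAs bind. Their messenger RNAs are very abundant in dividing cells. Most begin with a C followed by a run of pyrimidines, the 5′ terminal oligopyrimidine (TOP) motif, through which the kinase complex mTORC1 and the protein LARP1 control their translation and stability. Some free ribosomal proteins also bind MDM2, the ligase that degrades p53.

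Start sites from RefSeq (GRCh38.p14) show this motif in most of the genes. No start window was found for the paralogue RPL39L. Stretches around the start are shown for a choice of the members and relatives named below. Each runs from 40 bases before the annotated start to 20 after it, 5′ to 3′ on the gene's strand. Capitals mark the first run of a C and at least 4 further C or T that begins within the first 10 transcribed bases.
RPS26 (chr12:56041878-56041937, + strand): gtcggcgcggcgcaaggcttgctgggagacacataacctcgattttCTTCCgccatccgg
RPL10A (chr6:35468361-35468420, + strand): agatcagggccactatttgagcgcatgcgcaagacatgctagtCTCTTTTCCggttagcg
RPS6 (chr9:19380217-19380276, - strand): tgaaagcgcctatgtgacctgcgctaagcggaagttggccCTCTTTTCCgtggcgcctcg
RPS14 (chr5:150449720-150449779, - strand): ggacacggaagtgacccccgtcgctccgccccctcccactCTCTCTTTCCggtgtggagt
RPS15 (chr19:1438356-1438415, + strand): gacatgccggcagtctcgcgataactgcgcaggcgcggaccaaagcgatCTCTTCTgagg
RPL10 (chrX:154398337-154398396, + strand): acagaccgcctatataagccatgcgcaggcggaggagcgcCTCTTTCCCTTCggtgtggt
RPL39 (chrX:119791611-119791670, - strand): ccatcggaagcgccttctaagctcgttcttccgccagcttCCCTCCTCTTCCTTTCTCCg
EEF2 (chr19:3985444-3985503, - strand): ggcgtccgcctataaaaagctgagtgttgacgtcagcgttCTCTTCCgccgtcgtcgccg
RPL22L1 (chr3:170870176-170870235, - strand): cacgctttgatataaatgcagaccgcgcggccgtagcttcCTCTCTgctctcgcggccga
RPL10L (chr14:46651762-46651821, - strand): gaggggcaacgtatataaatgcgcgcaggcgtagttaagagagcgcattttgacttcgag

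The run began at the first transcribed base in RPS6, RPS14, RPL10, RPL39, EEF2 and RPL22L1, at base 4 in RPL10A, base 7 in RPS26 and base 10 in RPS15. RPL10L, a gene without introns that arose from a copy of the RPL10 transcript, held no such run there. RPL10 had 3 annotated starts, and the single one with the run is shown. Start windows were found for 42 of the 45 genes, and in 30 of the 42 at least 1 start opened with a C and 4 pyrimidines (71.4%). Such a start was found in 5.14% of 27305 genes in the table and in 6.15% of the 10749 genes measured here that had a window. The shares were 73.1% for the large and 68.8% for the small subunit.

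The 300-base windows, 250 before the start and 50 after it, were also searched on both strands for 4 short motifs. CCGGAA, the core bound by ETS factors, was in 52.9% of the 51 windows of these genes. It was in 17.2% of all 35116 windows and in 21.8% of the windows of genes measured here. In the same order, GCCATNTT, a form of the YY1 core, was in 15.7%, 6.58% and 7.53%. CACGTG, the E-box bound by MYC, was in 5.88%, 7.26% and 8.55%, and TATAAA in 3.92%, 11.5% and 8.57%. The median number of CG dinucleotides, where DNA methylation sits, was 22 in the windows of ribosomal protein genes, 14 in all windows and 22 in windows of the genes measured here. RPS26 had 22, RPL10L 25, RPL10A 31 and RPL22L1 32. DNA methylation was not measured.

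The arrays differed in their overall level. The median of the 48226 features was 3.03 and 2.98 in the untreated and decitabine arrays of replicate 1 and between 2.29 and 2.42 in the other 4. Of the 45 ribosomal protein genes, 9 had their 2 highest values in the arrays of replicate 1 and 5 their 2 lowest, so the offset of that replicate was not the same for each gene. Same-numbered arrays deviated together from their group means (correlations of 0.558 to 0.682 over the 14884 genes), so results of a fit blocked on replicate number are given where they change the call of a named gene. Levels of cell type markers are given without a test between genes, since levels of different array features cannot strictly be set against each other. In untreated cells vimentin (VIM) stood at 9.36 ± 0.29, fibronectin (FN1) at 10.75 ± 0.31, ESR1 at 2.03 ± 0.35 and PGR at 1.91 ± 0.37 (SD, n = 3). The median of all 7 measured mesenchymal or basal markers was 8.08, 8.30 and 8.29 in untreated replicates 1, 2 and 3. That of the 7 measured luminal markers was 3.48, 3.02 and 3.11, above ESR1 and PGR. Of 7 measured mesenchymal or basal markers AXL fell by 1.79 and EGFR fell by 1.15 on the log2 scale. Their limma adjusted p was 0.00361 and 0.0195, where 1.02% of all genes fell. AXL also passed when any 1 array was left out. EGFR passed in 1 of those 6 fits (adjusted p up to 0.12) and missed with median centring (0.103). ZEB1 passed downward with the block alone (0.0438, where 5.37% of all genes did), and the median change of the 7 markers was -0.51. Among these 7 markers VIM was lower in all treated arrays (8.74% of all genes were) but was not called (change -0.55, adjusted p = 0.317). None of 7 luminal markers passed (3.03% of all genes did), with KRT19 passing upward under the block (0.0380, where 7.79% of all genes did). Of 3 leukocyte markers CD14 and CD68 were higher in all treated arrays (changes of 0.72 and 0.50), as were 11.3% of all genes. CD14 passed with the block alone (0.0247, where 7.79% of all genes rose). Their part in the results for ribosomal protein genes was not tested.

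Ribosomal protein messages differed little between the groups, mostly downward, with a single call. The mean levels of the 45 genes over the 6 arrays ran from 3.59 to 11.56 (median 7.17), and that of RPS26 was 5.51. How well the dimmer features follow their messages was not tested. RPS26 was the 1 gene of 45 that passed the test, upward, and none fell, against 3.03% of all named genes called in either direction (2.01% upward and 1.02% downward, limma adjusted p under 0.05). At an unadjusted p under 0.05, RPL10A and RPS15A were lower (5.79% of all genes) and RPS26 higher (8.13%). With the replicate block, RPS26 passed upward and RPL10A downward, where 7.79% and 5.37% of all genes did (13.2% in all). The further settings under which more of these genes passed called 6.30% to 15.3% of all genes tested. The change was under 0.5 on the log2 scale in either direction for 41 of the 45, and RPS26 alone reached 2-fold. Of all 14884 genes 12174 were under 0.5 and 726 reached 2-fold. The median size of the change, without its sign, was 0.20 for the 45 genes and 0.21 for all genes. SEs and 95% intervals are from the fit without the block unless marked. In that fit the median 95% interval reached 0.48 to each side of the change, more than the fitted change of most of these genes. With the block the SE was smaller for genes such as RPL31 (0.14 against 0.66) and RPS14 (0.12 against 0.25).

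The direction was nevertheless uneven. The fitted change was below 0 for 35 of the 45 genes, against 52.8% of all genes. Decitabine was lower in all 3 same-numbered pairs for 25 of the 45 (21.8% of all genes) and higher in all 3 for 3, namely RPS26, RPS15 and RPL24 (22.9% of all genes). All 3 decitabine values lay below all 3 untreated values for 13 genes (8.74% of all genes) and above them for RPS26 only (11.3% of all genes). The median change was -0.18, with medians of -0.17, -0.14 and -0.19 in pairs 1, 2 and 3, and -0.02 over all 14884 genes. These counts describe the set, since its members share arrays and are not independent. Over the 45 genes the changes of the 3 pairs correlated at 0.68 to 0.78, and at 0.51 to 0.64 over the 44 without RPS26, a description over genes that share the same arrays.

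**Figure D1:**
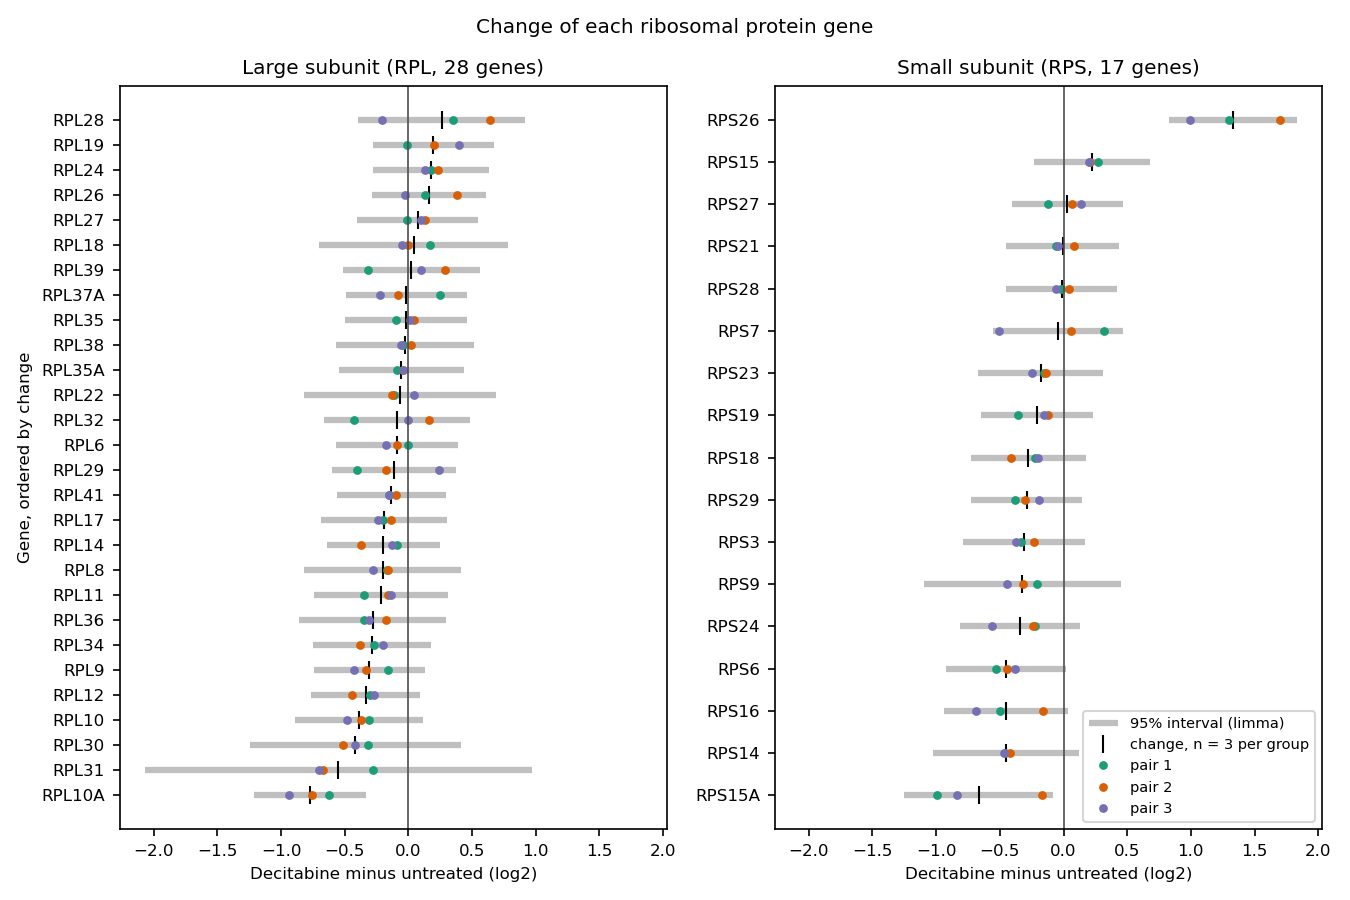
Change of each of the 28 large (left) and 17 small subunit genes (right) in log2 units: coloured points are the 3 same-numbered pairs, ticks the change over 3 arrays per group, and grey bars the 95% interval from limma without the block. RPS26 stands apart at 1.33, most other genes lie between -0.5 and 0.3, and RPL31 has the widest interval.

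RPS26 sits at the exit of the mRNA channel on the small subunit, where it contacts the message upstream of the start codon, and it is among the genes mutated in Diamond-Blackfan anaemia. Its level was 4.99, 4.6 and 4.94 in untreated replicates 1, 2 and 3 and 6.29, 6.30 and 5.93 in decitabine replicates 1, 2 and 3. Each treated array was above every untreated array by at least 0.94. The untreated mean was 4.84 ± 0.21 and the decitabine mean 6.17 ± 0.21 (SD, n = 3 each). The change was 1.33 in log2 units (SE 0.22, 95% interval 0.83 to 1.83), a 2.51-fold rise at a limma adjusted p = 0.0190. The change ranked at the 98.2nd percentile of all genes.

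The call of RPS26 depended on which array was left out and on the error model. RPS26 missed the threshold without untreated replicate 2 (adjusted p = 0.109), untreated replicate 3 (0.0658), decitabine replicate 1 (0.0617) or decitabine replicate 2 (0.107), and its change was 1.21 to 1.45 over the 6 fits that each left out 1 array. It also missed with ordinary least squares on all 6 arrays (0.0647) and without both arrays of replicate 1 (0.0561). It passed without untreated replicate 1 or decitabine replicate 3, and with the block (0.00747). RPS26 has near-identical processed pseudogenes, whose RNA an array feature may also bind. RPS26P11, the 1 such copy with a named feature, stood at 2.53, 1.85 and 2.87 in untreated and 2.28, 2.14 and 2.29 in decitabine arrays, a change of -0.18 (SE 0.28). FAU, whose product is cut into a ubiquitin-like part and the small subunit protein eS30 and whose symbol is outside the rule, was 5.17, 4.80 and 4.90 in untreated and 5.48, 5.49 and 5.40 in decitabine arrays. Its groups did not overlap, but its change of 0.50 (SE 0.20) did not pass (adjusted p = 0.3, and 0.0642 with the block).

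The other 16 small subunit genes did not pass, and 14 of the 17 had changes below 0. RPS15A, a protein of the subunit body, had the lowest change of the small subunit. It was 6.52, 5.94 and 6.02 in untreated and 5.53, 5.77 and 5.18 in decitabine arrays, a change of -0.67 (SE 0.25, 95% interval -1.25 to -0.08, limma adjusted p = 0.272). The groups lay apart, but the pairs differed in size, at -0.99, -0.17 and -0.84. RPS16, whose tail reaches the tRNA in the decoding site, was 7.96, 7.71 and 7.80 in untreated and 7.46, 7.55 and 7.11 in decitabine arrays, a change of -0.45 (SE 0.21, adjusted p = 0.417, and 0.108 with the block).

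RPS6 is the protein that S6 kinase phosphorylates when mTORC1 is active. Its level was 7.57, 7.82 and 7.72 in untreated and 7.04, 7.38 and 7.34 in decitabine arrays. Every treated array was below every untreated one, and the pair differences were -0.53, -0.44 and -0.38. The change of -0.45 (SE 0.20, 95% interval -0.92 to 0.02) missed the threshold, with limma adjusted p of 0.388 without and 0.0642 with the block. RPS14, a gene lost in the 5q- form of myelodysplastic syndrome, was 5.22, 5.65 and 5.78 in untreated and 4.76, 5.23 and 5.31 in decitabine arrays. Its pair differences were -0.46, -0.42 and -0.47, a nearly equal size, while the groups overlapped and replicate 1 was low in both. The change was -0.45 (SE 0.25, adjusted p = 0.532, and 0.0610 with the block), and with quantile normalization and the block together it passed (adjusted p = 0.044, where 15.3% of all genes did).

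Of the proteins along the mRNA entry and the decoding centre, RPS3 had a change of -0.31 (SE 0.21), RPS9 of -0.32 (SE 0.34) and RPS23 of -0.18 (SE 0.21). RPS3 was lower in all treated arrays (6.71, 6.79 and 7.01, against 7.04, 7.02 and 7.38), and RPS9 and RPS23 overlapped between groups. RPS19, the gene most often mutated in Diamond-Blackfan anaemia, was 9.36, 9.31 and 9.41 in untreated and 9, 9.19 and 9.26 in decitabine arrays, so that all treated arrays lay below the untreated ones. Its change of -0.21 (SE 0.19, adjusted p = 0.848) did not pass. RPS24, another gene of that disease, had a change of -0.34 (SE 0.20), RPS18 in the subunit head one of -0.28 (SE 0.20) and RPS29 one of -0.29 (SE 0.19). These 3 also lay below the untreated arrays in all treated ones, and 8 of the 17 small subunit genes were separated downward.

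RPS15, which reaches the decoding centre from the subunit head, had the highest change of the small subunit after RPS26. It was 11.54, 11.31 and 11.48 in untreated and 11.81, 11.52 and 11.68 in decitabine arrays, higher in each pair but overlapping between groups, with a change of 0.23 (SE 0.20, adjusted p = 0.826). RPS27 had a change of 0.03, RPS21 of -0.01, RPS28 of -0.01 and RPS7 of -0.04, with SE of 0.19 to 0.22. RPS7 binds MDM2 when free, and its pairs pointed both ways, at 0.32, 0.06 and -0.51.

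**Figure D2:**
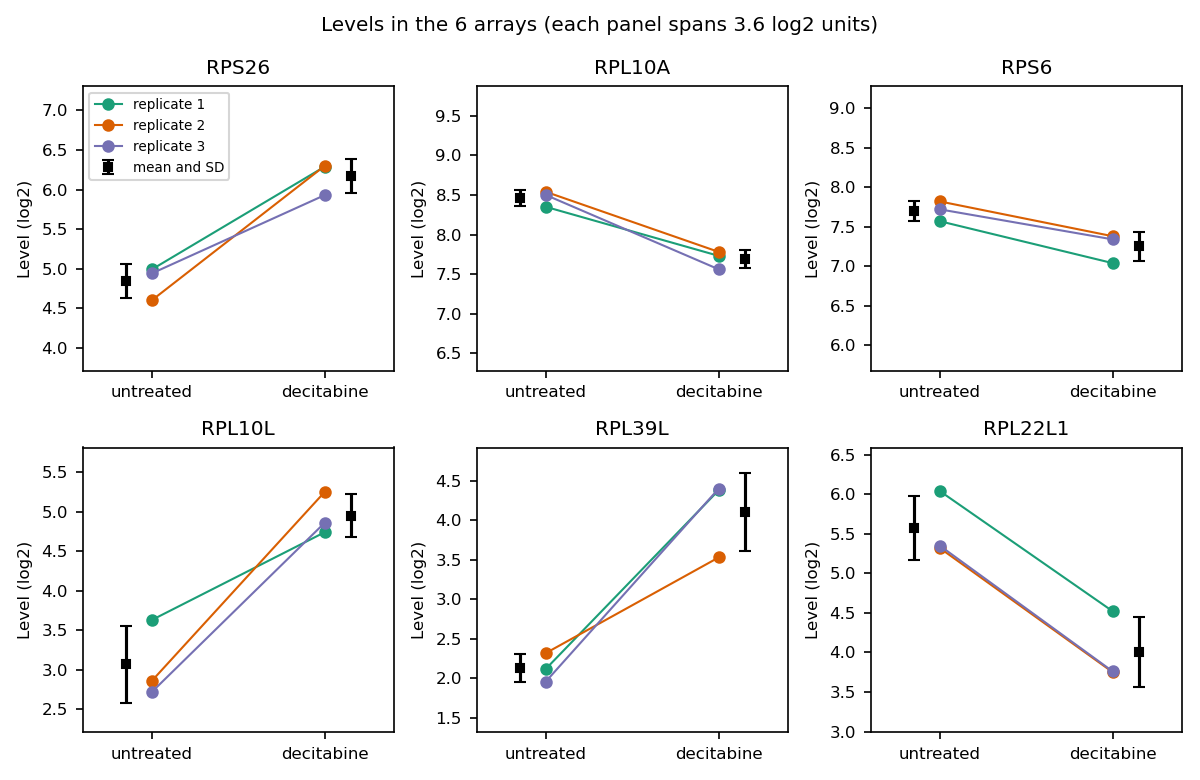
Levels (log2) of 6 genes in the 6 arrays: lines join same-numbered arrays, and squares with bars give the mean and SD of 3 arrays per group. All panels span the same range, and treated values are above untreated ones in RPS26, RPL10L and RPL39L and below them in RPL10A, RPS6 and RPL22L1.

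None of the 28 large subunit genes passed without the block, and RPL10A did with it (no rise). RPL10A forms the L1 stalk, the mobile arm at the site where spent tRNAs leave. Its level was 8.35, 8.54 and 8.5 in untreated and 7.73, 7.78 and 7.56 in decitabine arrays, so that the highest treated value was 0.57 below the lowest untreated one. The means of 8.46 ± 0.10 and 7.69 ± 0.12 (SD, n = 3 each) gave a change of -0.77 in log2 units (SE 0.19, 95% interval -1.22 to -0.33). The limma adjusted p was 0.0820 without and 0.0170 with the block, 0.0269 with quantile normalization (6.30% of all genes called) and 0.349 with median centring. It was 0.0165 with the dimmer genes left out (13.3% of those tested were called) and 0.00256 with trend and robust eBayes (7.63%). The call thus depended on scaling, pairing, filter and error model, while the change stayed between -0.71 and -0.83 when any array was left out.

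RPL31 and RPL30 had the next lowest changes, with wide errors in the fit without the block (SE with the block 0.14 and 0.12). RPL31, a protein beside the tunnel exit, was 5.17, 3.18 and 4.19 in untreated and 4.89, 2.51 and 3.49 in decitabine arrays. Replicates differed far more than treatments, and the SE of its change of -0.55 was 0.66 (adjusted p = 0.938), yet each pair was lower (-0.28, -0.67 and -0.70). With the block the adjusted p was 0.0573, and 0.0263 with quantile normalization too. Without decitabine replicate 2 its change was 0.01, in a fit without the block that kept the low untreated replicate 2. Pairs 1 and 3 differed by -0.28 and -0.70. RPL30 was 5.54, 4.59 and 4.87 in untreated and 5.22, 4.08 and 4.45 in decitabine arrays, a change of -0.42 (SE 0.36, adjusted p = 0.823, and 0.0808 with the block). In both genes replicate 1 was the highest of its group.

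RPL10 and RPL39 are the X-linked large subunit genes that were measured. RPL10 joins the subunit last and lies near the catalytic centre. It was 10.05, 10.46 and 10.47 in untreated and 9.74, 10.09 and 9.99 in decitabine arrays, lower in each pair by 0.31 to 0.48, with a change of -0.39 (SE 0.22, adjusted p = 0.548, and 0.0965 with the block). RPL39, a small protein in the wall of the exit tunnel, was 9.14, 8.5 and 8.56 in untreated and 8.82, 8.79 and 8.66 in decitabine arrays, and its change of 0.02 (SE 0.23) had no common direction over the pairs.

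At the factor-binding side, RPL12 at the base of the stalk was 11.56, 11.54 and 11.51 in untreated and 11.26, 11.10 and 11.24 in decitabine arrays. The groups lay apart, but the change of -0.34 (SE 0.19, limma adjusted p = 0.529) did not pass. With a level-dependent, robust error it did (adjusted p = 0.0317, where 7.63% of all genes passed). RPL9, which also lies near the stalk base, was 7.34, 7.49 and 7.59 in untreated and 7.18, 7.16 and 7.16 in decitabine arrays, a change of -0.31 (SE 0.19, adjusted p = 0.608). RPL11, which with RPL5 and the 5S RNA forms the particle that binds MDM2, was 9.56, 9.90 and 9.81 in untreated and 9.21, 9.74 and 9.67 in decitabine arrays. It was lower in each pair, overlapped between groups and had a change of -0.22 (SE 0.23, adjusted p = 0.9).

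Genes of the rim of the exit tunnel did not share a direction: RPL17 had a change of -0.19 (SE 0.21), RPL26 of 0.16 (SE 0.19) and RPL35 of -0.02 (SE 0.21). Proteins at the bridges between the subunits also differed in sign: RPL19 had a change of 0.20 (SE 0.21) and RPL24 of 0.18 (SE 0.20), but RPL41 of -0.13 (SE 0.19) and RPL30 of -0.42 (SE 0.36). RPL24 was the 1 large subunit gene higher in all 3 pairs, at 7.01, 7.21 and 7.02 in untreated and 7.19, 7.44 and 7.15 in decitabine arrays. RPL28 had the highest change of the large subunit, 0.26 (SE 0.29), and its values overlapped, at 4.24, 3.91 and 4.95 in untreated and 4.59, 4.55 and 4.74 in decitabine arrays. RPL8, near the catalytic centre, had a change of -0.20 (SE 0.27), RPL14 of -0.20 (SE 0.19), RPL36 of -0.28 (SE 0.25) and RPL34 of -0.28 (SE 0.20). RPL34 was the fourth large subunit gene whose treated arrays all lay below the untreated ones, after RPL10A, RPL12 and RPL9, and RPL41 the fifth.

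RPL41 encodes a very short, basic peptide between the subunits and had 5 features. The brightest was 11.56, 11.44 and 11.42 in untreated and 11.41, 11.34 and 11.27 in decitabine arrays, a change of -0.13 (SE 0.19). The other 4 gave -0.04, 0.09, 0.02 and -0.01, so its sign was not shared between features. The features of RPL39 gave 0.02 and -0.24, those of RPL19 0.20 and 0.02, and those of RPS18 -0.28 and -0.25. The genes RPL6, RPL18, RPL22, RPL27, RPL29, RPL32, RPL35A, RPL37A and RPL38 had changes of -0.11 (RPL29) to 0.07 (RPL27).

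The median change was -0.28 over 17 small and -0.10 over 28 large subunit genes, a difference of -0.18. In pairs 1, 2 and 3 the small subunit medians were -0.22, -0.16 and -0.25 and the large subunit medians -0.16, -0.12 and -0.15, so the difference was -0.07, -0.05 and -0.11. It had a single sign in the 3 pairs but was smaller there than over the group means. Treated values lay below all untreated ones for 8 of 17 small (47.1%) and 5 of 28 large subunit genes (17.9%), beside 8.74% of all genes. The difference has no test, since the genes of a subunit are not replicates. It was -0.13 with quantile normalization and -0.06 without untreated replicate 3.

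Genes with the pyrimidine start and without it were compared as a description. The 30 with it had a median change of -0.19, and 18 of them (60.0%) were lower in all 3 pairs. The 12 whose annotated starts lack it had a median of -0.07, with 4 lower and 2 higher in all 3 pairs. Those 12 include RPS26 and RPL10A, the genes with the highest and the lowest change, in which the run lies a few bases inside the annotated start. Annotated starts can be some bases off the start used in these cells.

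Paralogues of ribosomal proteins, which have their own genes, included 3 with a call. Of 8 measured, RPL39L and RPL10L rose and RPL22L1 fell (3.03% of all genes were called), and the median change was 0.18. RPL39L, a copy of RPL39 used in the testis, was 2.12, 2.32 and 1.96 in untreated and 4.38, 3.53 and 4.40 in decitabine arrays, and its change was 1.97 (SE 0.28, limma adjusted p = 0.0109). RPL10L, which takes the place of RPL10 in male meiosis when the X chromosome is silent, was 3.63, 2.86 and 2.72 in untreated and 4.74, 5.25 and 4.86 in decitabine arrays, a change of 1.88 (SE 0.29, adjusted p = 0.0155). In both the groups lay well apart, while the X-linked genes RPL39 and RPL10 had changes of 0.02 and -0.39.

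RPL22L1, which can take the place of RPL22 in the large subunit and rises when RPL22 is lost, was 6.04, 5.32 and 5.35 in untreated and 4.52, 3.75 and 3.76 in decitabine arrays. The pair differences were -1.52, -1.57 and -1.59, a change of -1.56 (SE 0.31), or 2.95-fold lower, with adjusted p of 0.0364 without and 0.00169 with the block. RPL22 itself was 4.19, 3.39 and 3.30 in untreated and 4.08, 3.26 and 3.34 in decitabine arrays, a change of -0.07 (SE 0.33). The other paralogues did not pass, with changes of -0.31 (RPL3L), 0.04 (RPL7L1), 0.13 (RPS27L), 0.23 (RPL36AL) and 0.45 (RPL26L1). RPL39L was no longer called without either array of replicate 3 (adjusted p of 0.0513 and 0.0542). RPL10L was lost without any single array of replicates 2 and 3 (0.0612 to 0.083), and RPL22L1 without any array but decitabine replicate 1 (0.0647 to 0.154). With ordinary least squares none of the 3 was called (RPL39L 0.0845, RPL10L 0.0998 and RPL22L1 0.154), and RPL39L was lost without both arrays of replicate 1 (0.0596). RPL39L and RPL10L started from dim levels, and no measure of background was used.

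Pseudogenes of ribosomal proteins, a list made after the values were seen, had 25 members with a named feature. RPL23AP82 and RPL23AP87 had the same values in all 6 arrays, so the members are not all separate measurements. None passed without the block (3.03% of all genes did), and the median change was -0.11. With the block 1 passed, RPL23AP32 (change 1.00, adjusted p = 0.0315, where 13.2% of all genes passed). RPL13AP20 and RPL21P28, at 9.65 and 9.44 over the 6 arrays, had changes of -0.33 (SE 0.19) and -0.17 (SE 0.20). The RNA of parent genes may bind such features, and the parents RPL13A and RPL21 were not analysed here. RPL13P5 had the highest change, 1.04 (SE 0.29, adjusted p = 0.116).

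**Figure D3:**
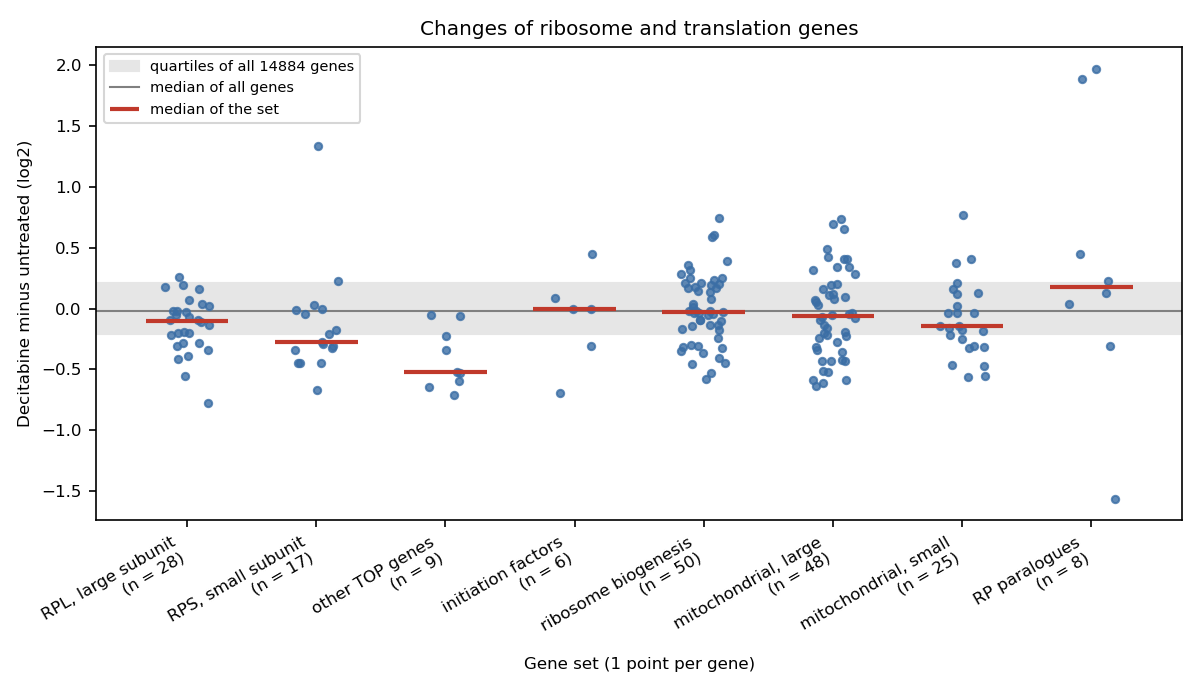
Log2 change of every gene in 8 sets (points), with the median of each set (red) beside the median and the quartiles of all 14884 genes (grey). The set medians are -0.10 for the large subunit, -0.28 for the small subunit, -0.52 for the 9 other TOP genes and 0.18 for the 8 paralogues, which run from -1.56 to 1.97.

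Other genes whose messages carry the TOP motif include the elongation factors, which bring tRNAs to the ribosome and move it along. Of 16 listed, 9 were measured and none passed without the block (3.03% of all genes did). All 9 changes were below 0, as were 52.8% of all genes, and 5 lay apart from the untreated arrays downward (8.74% of all genes). The median change was -0.52, with medians of -0.21, -0.53 and -0.53 in pairs 1, 2 and 3. With the block 4 passed, where 5.37% of all genes fell. EEF2, the factor that moves the ribosome, was 10.30, 10.73 and 10.91 in untreated and 9.70, 10.10 and 10.21 in decitabine arrays, a change of -0.64 (SE 0.25, limma adjusted p = 0.280, and 0.0227 with the block). The RNA-binding protein HNRNPA1 had a change of -0.71 (SE 0.21, 0.0215 with the block), the initiation factor EIF4B of -0.59 (SE 0.20, 0.0356) and EEF1G of -0.52 (SE 0.23, 0.0419). BTF3, which guards new chains, had the smallest change, -0.05. EIF4B and EEF1G had 2 features each, and with the mean of each gene's features the median of the set was -0.41.

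Of 28 other initiation factors 6 were measured, and none passed without the block (3.03% of all genes did). The median was -0.005, from -0.69 (SE 0.22) for EIF1 to 0.45 (SE 0.21) for EIF5B, which joins the subunits. EIF1, which helps to select the start codon, had a limma adjusted p of 0.179. With the block it was 0.0193, where 5.37% of all genes fell. Factors that build ribosomes had 50 of 70 listed genes measured, with none called without the block (3.03% of all genes were). Their median was -0.03, with 28 changes below 0, against 52.8% of all genes. UTP18, a factor of small subunit assembly, was highest at 0.74 (SE 0.20, adjusted p = 0.104, and 0.0178 with the block), and EMG1, which modifies the small subunit RNA, lowest at -0.58 (SE 0.25, adjusted p = 0.347, or 0.0366 when blocked). In the blocked fit 2 of the 50 rose and 2 fell, where 7.79% and 5.37% of all genes did. The 4 measured genes of RNA polymerase I, which makes ribosomal RNA, ran from -0.65 (POLR1H, SE 0.24) to 0.30 (TBP, SE 0.20). None was called without the block (3.03% of all genes were), and POLR1H passed downward with it (adjusted p = 0.0423, where 5.37% of all genes did).

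The mitochondrial ribosome, built from other nuclear genes, was measured in 48 of 49 listed large and 25 of 28 listed small subunit genes. None passed without the block (3.03% of all genes did). The medians were -0.07 and -0.15, and 27 of 48 and 17 of 25 changes were below 0, against 52.8% of all genes. The large subunit ran from -0.63 (MRPL10, SE 0.34) to 0.73 (MRPL14, SE 0.26) and the small subunit from -0.56 (MRPS10, SE 0.19) to 0.77 (MRPS12, SE 0.24). With the block MRPL14 (adjusted p = 0.0271), MRPS10 (0.0345) and MRPS12 (0.0344) passed. In that fit 3 of 48 large subunit genes rose and 3 fell, and 1 of 25 small subunit genes rose and 2 fell, where 7.79% of all genes rose and 5.37% fell. Their decitabine arrays lay below the untreated ones in 7 of 48 and 6 of 25 genes, against 13 of 45 for the cytosolic set and 8.74% of all genes. Whether the sets differ was not tested.

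The mTORC1 pathway, which drives translation of TOP messages, had 17 of 27 listed genes measured, of which 2 rose and 3 fell (2.01% and 1.02% of all genes). DDIT4 and SESN2 encode stress-induced inhibitors of the complex. DDIT4 fell by 3.28 on the log2 scale (SE 0.30, limma adjusted p = 0.00207) and SESN2 fell by 2.74 (SE 0.29, adjusted p = 0.00333), and in both the groups did not overlap. With ordinary least squares SESN2 (adjusted p = 0.0565), EIF4EBP1 (0.104) and RRAGA (0.0504) were not called. With the block 4 genes rose (7.79% of all genes), adding the sestrins SESN1 (0.52, SE 0.19) and SESN3 (0.73, SE 0.22). EIF4EBP1 and EIF4EBP2 encode proteins that hold back the cap-binding factor until mTORC1 phosphorylates them, and EIF4EBP1 fell while EIF4EBP2 rose. EIF4EBP1 was 8.18, 8 and 8.65 in untreated and 7.01, 7.21 and 7.17 in decitabine arrays, a change of -1.15 (SE 0.23, adjusted p = 0.0419). EIF4EBP2 was 7.69, 7.43 and 7.57 in untreated and 9.04, 8.82 and 8.90 in decitabine arrays, a change of 1.36 (SE 0.19, adjusted p = 0.0111). RRAGA, a GTPase that brings mTORC1 to the lysosome, was 4.38, 4.08 and 4.6 in untreated and 5.81, 5.72 and 5.85 in decitabine arrays, a change of 1.44 (SE 0.21, adjusted p = 0.0123). MTOR itself had a change of 0.41 (SE 0.20, adjusted p = 0.451). EIF4EBP1 was not called when any 1 array was left out (adjusted p between 0.0612 and 0.144), nor with median centring (0.149). EIF4EBP2 lost its call without any single array of replicates 2 and 3 (0.0503 to 0.075) and RRAGA without untreated replicate 2 or decitabine replicate 2 or 3 (0.062 to 0.0721).

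**Figure D4:**
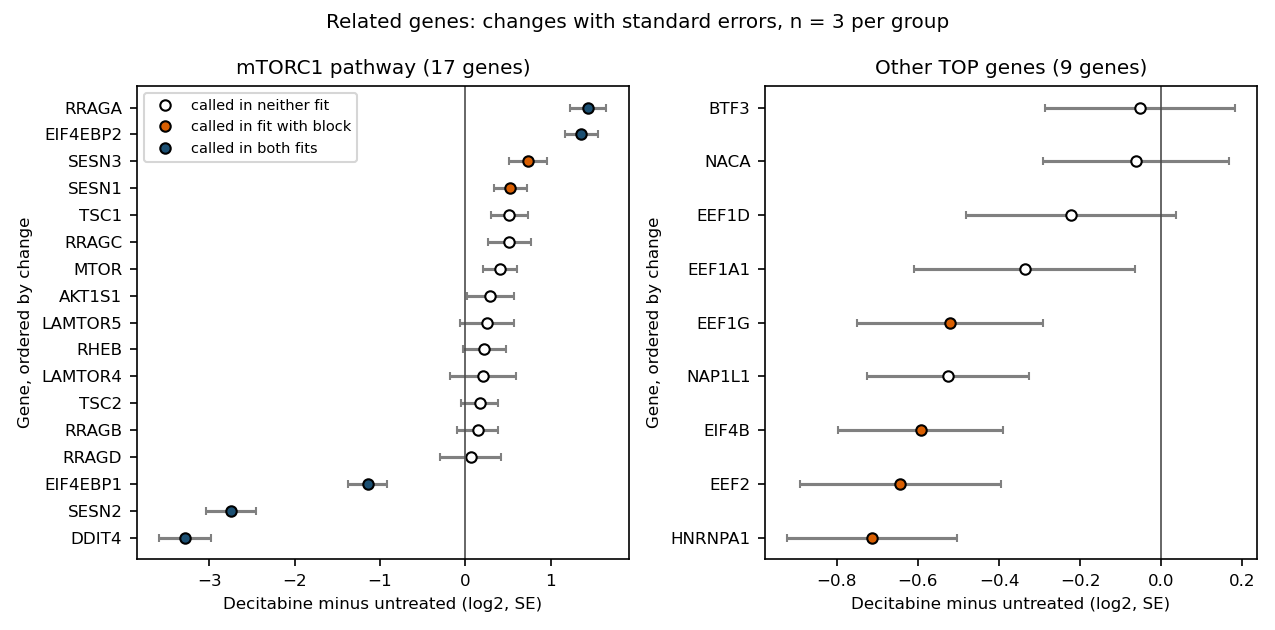
Log2 change with its SE (n = 3 per group) for 17 genes of the mTORC1 pathway (left) and 9 other TOP genes (right), filled by whether limma called them. DDIT4, SESN2 and EIF4EBP1 lie far left and EIF4EBP2 and RRAGA right, while all 9 TOP genes lie left of 0.

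Genes that link ribosome assembly to p53 had 7 of 13 listed members measured, of which 1 fell (1.02% of all genes), and 3 with the block (5.37%). MDM4, a partner of MDM2 that restrains p53, fell, from 7.23, 7.70 and 7.65 in untreated to 5.86, 6.21 and 6.17 in decitabine arrays, a change of -1.45 (SE 0.22, limma adjusted p = 0.0155). It was no longer called without any single array of replicates 2 and 3 (adjusted p between 0.0608 and 0.0928) or with median centring (0.0722) or ordinary least squares (0.0635). NOP53, a nucleolar factor of large subunit assembly, had a change of -1.16 (SE 0.26, adjusted p = 0.0580, and 0.00804 with the block). MYC, which drives ribosome genes, was 8.25, 9.45 and 9.54 in untreated and 7.40, 8.57 and 8.68 in decitabine arrays. Its groups overlapped, with replicate 1 low in both, the pair differences were -0.85, -0.88 and -0.86, and its adjusted p was 0.491 without and 0.0094 with the block.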

How the data were processed

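The labels' protocols describe Trizol collection, purification with a kit and biotin labelling of total RNA. The authors deposited 1 table of log2 values, which they made in the Transcriptome Analysis Console (a tool that the submitters' processing notes name without a version). Its normalization and filters are not given in these sources. The values were read as log2 because they ran from 0.17 to 12.89. The log base is not stated, so each fold rests on that reading, as does each log2 change. Of 48226 features 16098 carried a single symbol, updated by Entrez ID through RefSeq (GRCh38.p14), and they gave 14884 genes. No test compared the array values of different genes.

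The test was limma 3.58.1, run under R 4.3.3 with lmFit and eBayes on all 6 arrays, without further scaling or filter, with two-sided p-values adjusted by Benjamini-Hochberg over 14884 genes. An adjusted p under 0.05 counts as a rise or a fall. The replicate numbers in the titles pair the samples: deviations from the group means correlated at 0.682, 0.595 and 0.558 for the same number and at -0.483 to -0.006 for others.

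The members, the related lists and the rule for named genes were chosen with earlier results of these data known. The rule took members past the threshold in either fit, the 3 highest and lowest of each subunit, RPL5 and RPL11, X-linked members, RPS6, RPS27A, RPL41, members whose features disagree, paralogues and fusion genes, and in related lists the called or else the extreme genes. Other members were named after their values were seen, as were NOP53, MYC, MTOR, EEF1G, HNRNPA1 and EIF4B.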

Additional observations from a re-analysis of the deposited data

How the results depend on the processing

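Alternatives were the replicate block, quantile normalization, median centring, leaving out the dimmer 50% of genes, the mean of a gene's features, trend and robust eBayes, ordinary least squares, and leaving out each array. The fits that left out arrays had no block, so leaving out 1 array also broke up a same-numbered pair. Leaving out both arrays of replicate 1, and quantile normalization with the block, were added after seeing the data. Of 675 values of single ribosomal protein genes, 661 kept their side of the threshold, 8 newly passed (RPL10A in 5, RPL12, RPS14 and RPL31 in 1 each) and 6 no longer passed, all of RPS26. No called value reversed, and 42 values of uncalled genes had the opposite sign, at most 0.248 in size. The cause of these shifts was not tested.

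Of the ribosomal protein genes, 0 rose under ordinary least squares or without both arrays of replicate 1, while 1 fell with the block, quantile normalization or the dimmer genes left out, 2 with trend and robust eBayes and 3 with quantile normalization and the block. The large subunit median was -0.1354 with quantile normalization, with or without the block, and -0.13 without both arrays of replicate 1; small minus large was -0.1324 and -0.115. Without single arrays, 0 to 1 ribosomal protein genes rose, the large subunit median was -0.1492 to -0.055, the small subunit median -0.2483 to -0.1933 and their difference -0.175 to -0.06333.

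Of the paralogues, 1 rose with dimmer genes left out or without both arrays of replicate 1, and 0 rose and 0 fell under ordinary least squares. Without single arrays 0 to 2 rose and 0 to 1 fell, with a median of 0.1183 to 0.2992. The initiation factor median was then -0.1208 to 0.02083, 0 to 2 mTORC1 genes rose and 0 to 2 p53-axis genes fell.

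With the block, 2 assembly factors rose and 2 fell, 1 RNA polymerase I gene, 1 initiation factor and 4 TOP genes fell, 4 mTORC1 genes rose and 3 p53-axis genes fell. In the mitochondrial ribosome 3 large subunit genes rose and 3 fell, and 1 small subunit gene rose and 2 fell. With quantile normalization and the block these were 2 and 2, 1, 1 and 5, 5, 3, 3 and 4, and 1 and 3. With trend and robust eBayes, 2 assembly factors rose and 1 fell, 1 initiation factor, 3 TOP genes and 2 p53-axis genes fell, 2 mitochondrial large subunit genes rose and 2 fell, and 1 small subunit gene rose and 2 fell. With dimmer genes left out, 1 assembly factor rose, 1 TOP gene and 2 p53-axis genes (median -0.595) fell, 2 mitochondrial large subunit genes rose and 2 fell, and 1 small subunit gene fell. With ordinary least squares 1 mTORC1 gene rose and 1 fell, 0 p53-axis genes fell, 2 mitochondrial large subunit genes rose and 1 small subunit gene fell. With quantile normalization 2 p53-axis genes fell and 1 mitochondrial large subunit gene rose, and with median centring 0 p53-axis genes fell. Without both arrays of replicate 1 the mitochondrial small subunit median was -0.04 (-0.1517 to -0.09167 without single arrays) and the initiation factor median 0.03. For ordinary least squares, median centring and left-out arrays, the share of all genes called is not set beside these counts. Whether calls lost under those settings, that of RPS26 included, are particular to these genes was not tested. The 3 arrays per group limit the precision.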
